A study of Mus musculus with 2 samples.

Results

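Receptors for neurotransmitters were followed across the cell types of the fetal mouse testis. The set was chosen by gene symbol: every gene of the deposited feature table whose symbol follows the naming of GABA, ionotropic and metabotropic glutamate, muscarinic, nicotinic, adrenergic, serotonin or dopamine receptors was taken, whatever its level. This gave 97 of 32285 genes. One of them, Grina, carries a receptor-like symbol but encodes a protein associated with NMDA receptors and is no receptor subunit.

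Whole testes of E14.5 embryos (staged by embryonic day) were profiled with 10x multiome, which reads RNA and accessible chromatin (ATAC, DNA cut by a transposase) in the same nucleus, in 1 RNA library and 1 ATAC library. All nuclei came from Nr5a1-cre; Rosa-tdTomato embryos, a line in which Cre is driven by Nr5a1 regulatory sequence in steroidogenic and gonadal somatic cells and switches on a red reporter. No other genotype, stage or treatment was measured here, the nuclei were not selected by the reporter, and how many embryos were pooled was not given in the sources used here. Nuclei of 1 library are not replicates, so every difference below compares classes of nuclei within these libraries, without a test, and every interval is an exact 95% interval that covers counting error only.

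Neurotransmitter receptors fall into ligand-gated channels, which pass ions when the transmitter binds, and receptors coupled to G proteins, which act through second messengers. GABA-A and nicotinic receptors are channels of several subunits, and AMPA, kainate and NMDA receptors are channels for glutamate. The same genes are also transcribed outside neurons, and muscarinic and adrenergic receptors are known for their roles in smooth muscle and glands. Androgens of the fetal testis are made by fetal Leydig cells, which lie in the interstitium between the testis cords beside mesenchymal cells that include their progenitors.

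After filters on quality and doublets, 7197 nuclei with a median of 7949 RNA molecules (UMIs) were kept. They were clustered without the receptor genes and named by markers into 11 classes: 3266 interstitial progenitor-like, 989 germ-like, 829 Sertoli-like, 806 Leydig-like, 546 surface epithelium-like, 397 mesonephric mesenchyme-like, 84 supporting-like, 97 endothelial-like, 68 pericyte-like, 46 erythroid-like and 69 immune-like nuclei. The 5 Leydig markers together stood at 4206 CPM (UMIs per 1000000 of the class) in Leydig-like nuclei, against 658 CPM in the next class, pericyte-like. Supporting-like nuclei were named by Pax8 and 3 other markers but also held the surface epithelium list at 1890.1 CPM, beside 2286 CPM in surface epithelium-like nuclei. Median UMIs per nucleus ran from 5734 in immune-like to 15614 in germ-like nuclei. Nuclei of over 50000 UMIs gave 45.2% of all endothelial-like, 37.1% of immune-like and 23.0% of germ-like UMIs, so these levels lean on few deep nuclei. A level below is the CPM of a gene over the summed UMIs of a class. Levels are compared between classes for 1 gene, and between genes only per kb of gene span.

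Of the 97 receptor genes, 47 (48.5%) reached 100 UMIs over the kept nuclei, beside 47.2% of all genes. A total of 93 genes had at least 1 UMI and 21 had at least 1000. The 4 genes with no UMI were Gabra6, Chrm4, Chrna6 and Htr5a, and a count of 0 here, taken as at most 3 counts per class, allows a Leydig-like level of up to 0.328 CPM and a progenitor-like level of up to 0.126 CPM. Together the set held 141200 UMIs, which is 0.183% of all UMIs. Detection was uneven among the transmitters. All 4 AMPA, all 5 kainate and both GABA-B genes reached 100 UMIs, as did 6 of 7 NMDA, 6 of 8 metabotropic glutamate and 10 of 19 GABA-A genes. By contrast this held for 2 of 16 nicotinic, 2 of 5 muscarinic, 3 of 9 adrenergic and 4 of 14 serotonin genes, and for 0 of 5 dopamine receptor genes, whose totals ran from 1 to 35 UMIs. Gene span moved with detection: the genes of at least 100 UMIs had a median span of 184 kb and the others 16.0 kb, and across the 97 genes Spearman's rho of span with UMIs was 0.749, beside 0.626 over 21702 protein-coding genes. Genes share library and depth, so these are descriptions, and the part of intronic reads in the totals was not tested.

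The receptors were spread over many classes. Of the 47 genes of at least 100 UMIs, 12 had their highest level in surface epithelium-like nuclei (25.5%, beside 4.64% of all genes of that count), the cells that cover the testis. Leydig-like nuclei held the highest level of 7 genes (8.96% of all genes) and supporting-like nuclei, a small class of 84 nuclei, also of 7 (7.86%). Germ-like and mesonephric mesenchyme-like nuclei led for 6 each (19.3% and 4.19%), pericyte-like for 4 (6.57%), endothelial-like for 2 (4.03%), and progenitor-like, Sertoli-like and erythroid-like for 1 each (3.10%, 8.19% and 22.4%). None of the 47 was highest in immune-like nuclei (10.7%). Small classes have wide intervals. The count of 12 moved with the settings: surface epithelium-like nuclei led for 7 genes with a stricter removal of doublets, 9 without nuclei over 50000 UMIs, 9 with stricter minimums per nucleus, 10 at a clustering resolution of 0.6, 15 when only classes of at least 300 nuclei were ranked and 19 in classes from ATAC alone, which had no supporting-like or pericyte-like class. The share of all genes was not computed for these settings. A gene was called restricted when its highest class was at least 3-fold above the next, with an interval above 1 and at least 10 UMIs. This held for 14 of 47 genes (29.8%, beside 10.0% of all genes). Among them were Chrm3 and Grin2c in Leydig-like (1.24% of all genes), Gabra4 and Gabre in surface epithelium-like (0.486%), Gabrg3, Gabra2 and Grin2b in supporting-like (0.578%), Grm8, Grm5, Grm3 and Adrb3 in germ-like (3.24%), Gria2 in endothelial-like (0.598%) and Chrm2 in pericyte-like nuclei (0.296%). No receptor gene was restricted to the other 5 classes, beside 0.650% of all genes for Sertoli-like, 1.24% for immune-like, 1.43% for erythroid-like, 0.250% for mesonephric mesenchyme-like and 0.0328% for progenitor-like nuclei. Of the 14 calls, 3 held under all 12 alternatives of nuclei, classes, filter and scaling, those of Chrm3, Grin2c and Gria2. Grm5, Gabrg3 and Grin2b kept the call under 11, Adrb3 and Gabra2 under 10, Chrm2 under 9 and Gabre under 8. Grm8 kept it under 6, Grm3 under 5 and Gabra4 under 4. A minimum of 20 UMIs, other scaling and the ranking of classes of at least 300 nuclei used the main clusters. Another random start gave the same calls. Only these 4 alternatives kept the call of Gabra4.

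**Figure D1:**
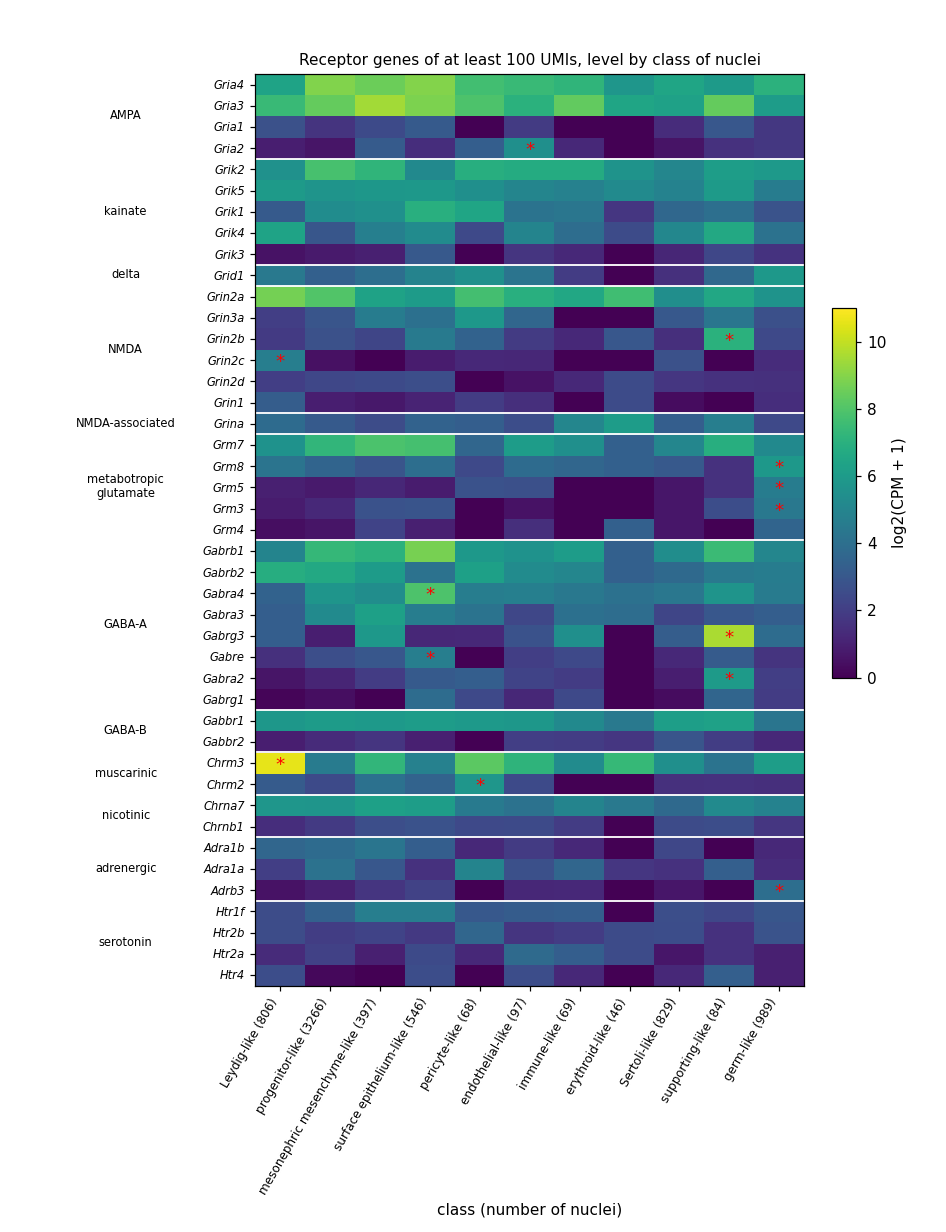
Heat map of log2(CPM + 1) for receptor genes of at least 100 UMIs (rows, grouped by receptor type) in the 11 classes of nuclei (columns, number of nuclei in brackets), with a red star where a gene was restricted to a class. The brightest cell is Chrm3 in Leydig-like nuclei at 1526 CPM, and stars are spread over 6 classes.

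Among the muscarinic receptors, which bind acetylcholine and couple to G proteins, Chrm3 was concentrated in Leydig-like nuclei. Its level was 1526 CPM (1500.4 to 1551) there, 299 in pericyte-like, 164 in erythroid-like, 148 in mesonephric mesenchyme-like, 139.9 in endothelial-like, 69.5 in germ-like, 43.3 in Sertoli-like, 38.8 in immune-like, 27.8 in surface epithelium-like, 23.2 in progenitor-like and 17.1 CPM in supporting-like nuclei. Leydig-like nuclei stood 5.10-fold (4.44 to 5.87) above pericyte-like nuclei, and all other classes lay lower still. Of 806 Leydig-like nuclei, 698 (86.6%) held a Chrm3 UMI, at a median depth of 9697 UMIs. In germ-like nuclei the share was 12.9% at a median depth of 15614 UMIs. With every nucleus thinned to 2000 UMIs, the shares were 72.1% (68.9 to 75.2) of 803 Leydig-like nuclei, 4.05% (2.91 to 5.48) of 987 germ-like and 3.11% (2.54 to 3.77) of 3211 progenitor-like nuclei, and the intervals of the last pair overlap. How far free RNA gave the UMIs of either class was not tested. In pericyte-like nuclei 22 of 68 held a UMI and 1 nucleus gave 18.8% of the UMIs. Without that nucleus the pericyte-like level was 247 CPM. Genes within the Chrm3 body on either strand, among them Gm47405 and Gm26861, could share reads with it.

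Chrm2, the muscarinic receptor best known from the heart, was restricted to pericyte-like nuclei at 53.2 CPM (37.5 to 73.4), with 16.0 CPM in mesonephric mesenchyme-like, 10.3 in surface epithelium-like, 7.87 in Leydig-like and 4.52 CPM in progenitor-like nuclei. The pericyte-like value rests on 37 UMIs of 6 nuclei. A single nucleus gave 14 of them, and without it the level was 33.8 CPM, which is under 3-fold above the next class. The other muscarinic genes, Chrm1, Chrm5 and Chrm4, had 10, 4 and 0 UMIs.

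NMDA receptors are glutamate channels built from an obligatory GRIN1 subunit with GRIN2 or GRIN3 subunits. Grin2a was highest in the interstitium: 417 CPM (404 to 430.2) in Leydig-like, 259 in progenitor-like, 209 in pericyte-like, 199 in erythroid-like and 122 CPM in endothelial-like nuclei, against 41.8 to 96.4 CPM in the other 6 classes. Grin2c, a subunit known from the cerebellum, was restricted to Leydig-like nuclei. It reached 24.8 CPM (21.7 to 28.3) there, 5.58 in Sertoli-like, 1.63 in germ-like, 0.777 in surface epithelium-like and 0.419 CPM in progenitor-like nuclei. No Grin2c UMI was seen in mesonephric mesenchyme-like, supporting-like, immune-like or erythroid-like nuclei, which allows up to 0.978, 3.01, 4.32 and 7.04 CPM (3 counts per class). The ratio of Leydig-like to Sertoli-like nuclei was 4.45 (3.31 to 6.07). A UMI was present in 167 of 806 Leydig-like nuclei (20.7%) and in 2.63% of germ-like nuclei, and after thinning in 6.23% (4.66 to 8.13) and 0.405% (0.111 to 1.03), at median depths of 9697 and 15614 UMIs before it.

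Of the partner subunits, Grin1 was highest in the same class, and Grin2b and Grin3a were highest elsewhere. Grin1, without which no NMDA receptor forms, had 154 UMIs in all. It stood at 8.42 CPM (6.64 to 10.5) in Leydig-like nuclei, 4.69 CPM from 2 UMIs of 1 erythroid-like nucleus and 0.922 CPM in progenitor-like nuclei. It was not restricted in the main classes. It was restricted with stricter minimums per nucleus, without nuclei over 50000 UMIs, and in classes from RNA alone or ATAC alone. The same held among classes of at least 300 nuclei. Grin1 overlaps the antisense gene Grin1os, and its strand handling in counting was not given in the sources used here. Grin2b was restricted to supporting-like nuclei at 129.6 CPM (108 to 154), with 21.4 CPM in surface epithelium-like nuclei and 10.1 CPM or less elsewhere. Grin3a was highest in pericyte-like nuclei at 57.6 CPM (41.1 to 78.4) and next in mesonephric mesenchyme-like nuclei at 23.8 CPM, and a calcineurin gene, Ppp3r2, lies inside it on the same strand. Grin2d did not exceed 5.24 CPM in any class and Grin3b had 54 UMIs. Grina was highest in erythroid-like nuclei at 65.7 CPM (43.7 to 94.9), with 31.7 CPM in immune-like nuclei.

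The upstream sequences of Chrm3 and Grin2c are shown because these were the only restricted genes of the Leydig-like class and because ATAC fragments at both starts also differed between Leydig-like and progenitor-like nuclei. Both are the 250 bases before the RefSeq start (build GRCm38.p6), read 5′ to 3′ along the gene from the minus strand, with capitals for a match to AAGGTCA, the core motif of the nuclear receptor NR5A1, on either strand. The search also covered AGATAA, which GATA factors bind, on either strand.
Chrm3, chr13:10360804-10361053: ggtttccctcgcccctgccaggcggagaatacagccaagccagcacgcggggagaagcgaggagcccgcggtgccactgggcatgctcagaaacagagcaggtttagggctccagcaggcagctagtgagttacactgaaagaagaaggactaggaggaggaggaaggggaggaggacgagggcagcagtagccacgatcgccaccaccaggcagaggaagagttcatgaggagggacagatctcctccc
Grin2c, chr11:115267244-115267493: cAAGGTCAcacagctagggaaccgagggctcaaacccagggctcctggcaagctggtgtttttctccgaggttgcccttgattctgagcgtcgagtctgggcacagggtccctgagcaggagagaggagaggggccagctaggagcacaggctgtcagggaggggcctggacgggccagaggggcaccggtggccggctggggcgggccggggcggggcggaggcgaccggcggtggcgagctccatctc
The NR5A1 motif stands near the far end of the Grin2c window, and the Chrm3 window holds neither set of letters. Of 81 promoter windows of 69 receptor genes in the table, 1 held AAGGTCA and 7 held AGATAA, beside 4.08% and 9.99% of all 32851 windows. A match of letters is a description and not a binding site.

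**Figure D2:**
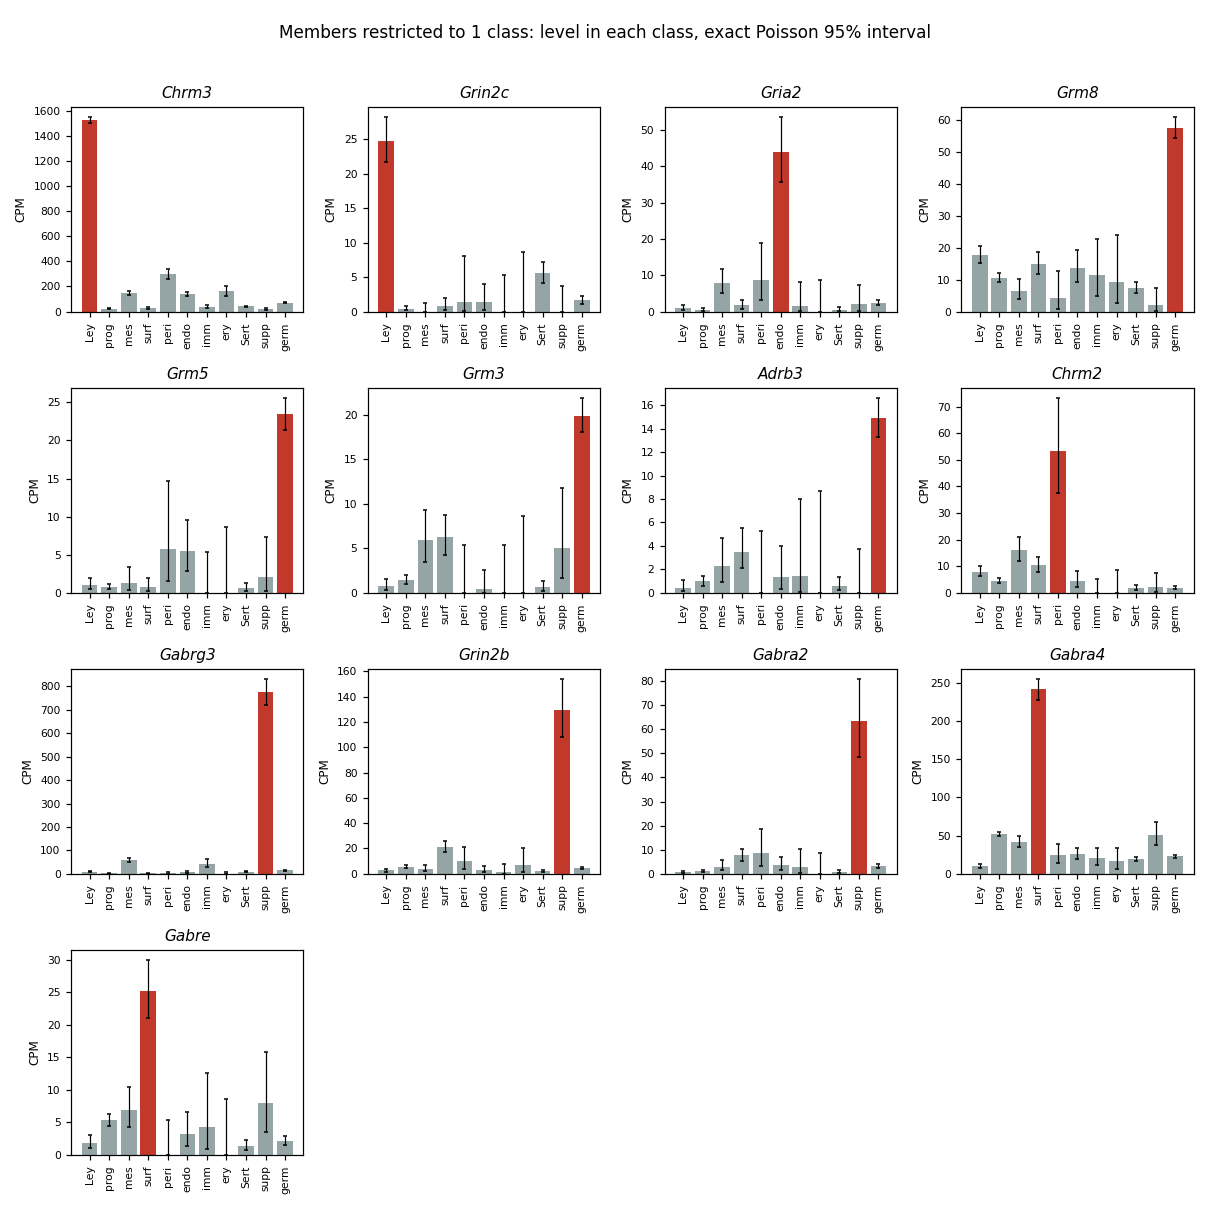
Level (CPM, y axis, own scale in each panel) of restricted receptor genes in the 11 classes: Leydig (Ley), progenitor (prog), mesonephric mesenchyme (mes), surface epithelium (surf), pericyte (peri), endothelial (endo), immune (imm), erythroid (ery), Sertoli (Sert), supporting (supp) and germ. Bars are class levels with exact Poisson 95% intervals and the highest class is red: Chrm3 reaches 1526 CPM in Leydig-like and Gabrg3 776 CPM in supporting-like nuclei.

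AMPA receptors carry fast glutamate currents in the brain. In the testis Gria4 and Gria3 were highest in mesenchyme or surface epithelium. Gria4 stood at 497 CPM (478 to 517) in surface epithelium-like, 481 in progenitor-like, 365 in mesonephric mesenchyme-like, 200.03 in pericyte-like, 176 in endothelial-like, 144 in immune-like, 134 in germ-like, 87.8 in Sertoli-like, 83.4 in Leydig-like, 63.3 in supporting-like and 54.0 CPM in erythroid-like nuclei. Its top pair did not differ beyond counting error, with a ratio of 1.03 (0.989 to 1.08). Gria3 peaked at 714 CPM (684 to 744) in mesonephric mesenchyme-like nuclei, 1.57-fold (1.48 to 1.67) above surface epithelium-like nuclei, and ran from 67.6 CPM in germ-like to 341 CPM in progenitor-like nuclei elsewhere. Gria2, whose edited subunit makes AMPA channels tight to calcium, had 215 UMIs in all and was restricted to endothelial-like nuclei at 43.9 CPM (35.6 to 53.6), against 8.63 CPM in pericyte-like nuclei and 0.545 CPM in progenitor-like nuclei. It was found in 26 of 97 endothelial-like nuclei (26.8%) and in 2.83% of germ-like nuclei, or 12.5% (6.63 to 20.8) against 0.608% (0.223 to 1.32) after thinning, at medians of 9782 and 15614 UMIs before it. Gria1 did not exceed 7.77 CPM in any class.

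Kainate receptors are another type of glutamate channel. Grik2 was the only one of the 47 receptor genes with its highest level in progenitor-like nuclei, at 221 CPM (215 to 227), 1.53-fold (1.39 to 1.69) above mesonephric mesenchyme-like nuclei, and it ran from 31.7 CPM in Sertoli-like to 117 CPM in pericyte-like nuclei in the other 9 classes. Grik4 had another layout: it was 97.5 CPM (79.0 to 119) in supporting-like, 82.1 in Leydig-like, 38.4 in surface epithelium-like, 33.3 in Sertoli-like and 6.66 CPM in progenitor-like nuclei, and the first pair did not differ beyond counting error, with a ratio of 1.19 (0.951 to 1.47). Grik1 was highest in surface epithelium-like nuclei at 123 CPM (114 to 133), with 86.3 CPM in pericyte-like and 7.76 CPM in Leydig-like nuclei. Grik5 lay between 23.8 CPM in germ-like and 63.4 CPM in Leydig-like nuclei, and Grik3 reached 7.38 CPM in surface epithelium-like nuclei.

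Delta subunits of the glutamate receptor family bind cerebellins at synapses and act mainly in adhesion. Grid1, one of them, was highest in germ-like nuclei at 57.8 CPM (54.6 to 61.2), followed by pericyte-like nuclei at 44.6 CPM, a pair that did not differ beyond counting error, and it was lowest among the classes of at least 300 nuclei in Sertoli-like nuclei at 1.89 CPM.

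Metabotropic glutamate receptors are coupled to G proteins, and 3 of them were restricted to germ-like nuclei. Grm8 stood at 57.7 CPM (54.5 to 61.0) there, 3.26-fold (2.76 to 3.86) above Leydig-like nuclei at 17.7 CPM. Grm5 stood at 23.4 CPM (21.4 to 25.6) and at 5.76 CPM, from 4 UMIs, in the next class, pericyte-like. Grm3 stood at 19.9 CPM (18.0 to 21.9), 3.20-fold (2.23 to 4.74) above surface epithelium-like nuclei. Germ-like nuclei were also the deepest class: a Grm8 UMI was present in 349 of 989 germ-like nuclei (35.3%) and in 7.94% of Leydig-like nuclei, the next class, and after thinning in 9.32% (7.58 to 11.3) and 2.24% (1.33 to 3.52), at medians of 15614 and 9697 UMIs before it. Grm4 was also highest in germ-like nuclei, at 10.8 CPM (9.46 to 12.3), with 9.38 CPM from 4 UMIs of 1 nucleus in erythroid-like nuclei. Grm7 was highest in mesenchyme and epithelium: 232 CPM (215 to 249.9) in mesonephric mesenchyme-like, 218 in surface epithelium-like, 150.2 in progenitor-like, 119.6 in supporting-like and 47.1 CPM in Leydig-like nuclei. Its top pair did not differ beyond counting error. Grm6 and Grm2 had 2 and 1 UMIs.

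GABA-A receptors are chloride channels of several subunits, usually alpha, beta and gamma, whose genes lie in clusters. Gabrg3 stood at 776 CPM (722 to 832) in supporting-like nuclei, 56.7 in mesonephric mesenchyme-like, 43.2 in immune-like, 13.8 in germ-like, 8.74 in Leydig-like, 8.47 in Sertoli-like, 5.89 in endothelial-like, 1.44 in pericyte-like, 1.36 in surface epithelium-like and 0.922 CPM in progenitor-like nuclei, with no UMI in erythroid-like nuclei. Of the 14 restricted genes it had the largest ratio, 13.7-fold (11.6 to 16.2) above the next class. A Gabrg3 UMI was present in 59 of 84 supporting-like nuclei (70.2%) against 8.80% of germ-like nuclei, or 60.7% (49.5 to 71.2) against 1.93% (1.16 to 2.99) after thinning, at medians of 10163 and 15614 UMIs before it.

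On chromosome 5, Gabrg1, Gabra2, Gabra4 and Gabrb1 lie side by side, and 3 of these 4 were highest in surface epithelium-like nuclei. Gabrb1 stood at 427 CPM (409 to 445) there, 2.36-fold (2.03 to 2.76) above supporting-like nuclei at 181 CPM, with 157 CPM in progenitor-like, 132 CPM in mesonephric mesenchyme-like and 30.5 CPM in Leydig-like nuclei. Gabra4 was restricted to the same class: 242 CPM (229 to 256) in surface epithelium-like, 52.3 in progenitor-like, 51.2 in supporting-like, 41.4 in mesonephric mesenchyme-like, 26.3 in endothelial-like, 24.5 in pericyte-like, 22.7 in germ-like, 20.1 in immune-like, 19.3 in Sertoli-like, 16.4 in erythroid-like and 10.1 CPM in Leydig-like nuclei. Of the 546 surface epithelium-like nuclei, 326 (59.7%) held a Gabra4 UMI, beside 19.1% of germ-like nuclei, or 31.4% (27.5 to 35.5) and 3.24% (2.23 to 4.55) after thinning, at medians of 7786.5 and 15614 UMIs before it. The starts of Gabra4 and Gabrb1 overlap by 0.196 kb on opposite strands. Gabrg1 reached 14.0 CPM (10.9 to 17.6), which did not differ beyond counting error from supporting-like nuclei, with a ratio of 1.26 (0.667 to 2.65). The other gene, Gabra2, was restricted to supporting-like nuclei at 63.3 CPM (48.6 to 81.0), 7.33-fold (3.19 to 20.7) above pericyte-like nuclei.

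Other GABA-A genes were placed differently. Gabrb2, on chromosome 11, was highest in Leydig-like nuclei at 113 CPM (106 to 120.3), with 98.9 CPM in the next class, progenitor-like. This order turned at a clustering resolution of 0.6, with 115 CPM in Leydig-like and 124 CPM in progenitor-like nuclei, and in classes from ATAC alone, with a Leydig-like to progenitor-like ratio of 0.899 (0.833 to 0.968). Gabre, on the X chromosome, was restricted to surface epithelium-like nuclei at 25.2 CPM (21.1 to 29.97), 3.14-fold (1.55 to 7.43) above supporting-like nuclei, where 8.04 CPM rest on 8 UMIs. Its neighbour Gabra3 was highest in mesonephric mesenchyme-like nuclei at 74.4 CPM (65.0 to 84.7), with 36.9 CPM in progenitor-like nuclei. The 9 GABA-A genes under 100 UMIs held 0 to 77 UMIs. Summed over all 19 genes, GABA-A levels were 1419 CPM in supporting-like, 794 in surface epithelium-like, 447 in mesonephric mesenchyme-like, 394 in progenitor-like and, lowest of these 5, 261 CPM in Leydig-like nuclei. GABA-B receptors are pairs of GABBR1 and GABBR2. Gabbr1 ran from 18.2 CPM in germ-like to 78.4 CPM in supporting-like nuclei, whereas Gabbr2 did not exceed 6.48 CPM, its level in Sertoli-like nuclei, and per kb of span they stood at 1.76 and 0.00653 CPM per kb over all kept nuclei.

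Of the nicotinic subunits, which form cation channels opened by acetylcholine, only Chrna7 and Chrnb1 reached 100 UMIs. Chrna7, which can form channels on its own, stood at 76.3 CPM (66.8 to 86.7) in mesonephric mesenchyme-like, 69.3 in surface epithelium-like, 54.4 in Leydig-like and 51.7 CPM in progenitor-like nuclei, and was lowest in Sertoli-like nuclei at 12.7 CPM. Its top pair did not differ beyond counting error. Chrnb1, a muscle subunit, did not exceed 5.83 CPM, and the 14 others held 0 to 89 UMIs.

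Adrenergic receptors bind adrenaline and noradrenaline. Adra1b, of the alpha1 type that contracts smooth muscle, was highest in mesonephric mesenchyme-like nuclei at 18.6 CPM (14.1 to 24.1), followed by progenitor-like nuclei at 13.2 CPM, and stood at 11.5 CPM in Leydig-like nuclei. Adra1a was highest in pericyte-like nuclei at 30.2 CPM (18.7 to 46.2), where 10 of 21 UMIs came from 1 nucleus, and without it that level was 16.0 CPM against 16.5 CPM in progenitor-like nuclei. Adrb3, best known from fat, was restricted to germ-like nuclei at 14.9 CPM (13.3 to 16.7), 4.26-fold (2.65 to 7.29) above surface epithelium-like nuclei, and it shares 11.6 kb with a gene on the other strand, Gm45470. At a clustering resolution of 0.6, where germ-like nuclei were split, Adrb3 stood at 17.7 CPM in an unnamed cluster and 13.2 CPM in the nuclei that kept the germ-like name. With nuclei over 50000 UMIs left out, where an unnamed cluster also formed, the log2 ratio of germ-like to the highest other class was also below 0, at -0.13 (-0.50 to 0.23), within counting error. The 6 other adrenergic genes held 1 to 78 UMIs.

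Most serotonin receptors are coupled to G proteins. Htr1f was highest at 25.1 CPM (19.8 to 31.4) in mesonephric mesenchyme-like and 24.9 CPM in surface epithelium-like nuclei, which did not differ beyond counting error, while progenitor-like nuclei stood at 9.68 and Leydig-like nuclei at 4.81 CPM. Htr2a, which mediates contraction of vessels, reached 13.1 CPM (8.79 to 18.9) in endothelial-like nuclei, and Htr2b 11.5 CPM from 8 UMIs in pericyte-like nuclei. Htr2b shares 12.9 kb with Psmd1 on the other strand. Htr4 reached 9.04 CPM from 9 UMIs in supporting-like nuclei. The 10 others held 0 to 52 UMIs, and all 5 dopamine receptors together did not exceed 2.01 CPM in any class.

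The study compared steroidogenic progenitors with fetal Leydig cells, and the receptors were set against this contrast. In the study contractile cells formed a cluster of their own, whereas the progenitor-like class here included them. Of its nuclei, 1067 (32.7%) fell in a contractile-like class, named by smooth muscle markers, at a clustering resolution of 0.6. Of 33 receptor genes with at least 100 UMIs over both classes, 13 were at least 2-fold higher in progenitor-like nuclei with an interval above 1 (39.4%, beside 14.1% of 12258 genes), and 7 were at least 2-fold higher in Leydig-like nuclei (21.2%, beside 10.6%). With 1 CPM added to each level, the median log2 ratio of Leydig-like to progenitor-like CPM was -0.19 for the 33 genes and 0.018 for all genes. The genes higher in Leydig-like nuclei were led by Chrm3 (65.9-fold, 60.5 to 71.8) and Grin2c (59.2-fold, 31.6 to 125) and included Grik4 (12.3-fold, 10.4 to 14.7), Gabrg3 (9.49-fold, 5.86 to 16.0), Gria1 (2.61-fold, 1.73 to 3.92) and Grid1 (2.19-fold, 1.80 to 2.67). The value for Chrm3 compares 1526 with 23.2 CPM and that for Grin2c 24.8 with 0.419 CPM, beside 69.5 and 1.63 CPM in germ-like nuclei. In classes from ATAC alone the order of the low pair turned, with Chrm3 at 71.0 CPM in progenitor-like and 32.0 CPM in germ-like nuclei and Grin2c at 0.906 and 0.591 CPM. The part of free RNA in such low levels was not tested, and the intervals do not cover it. The value for Gabrg3 compares 8.74 with 0.922 CPM, both below the germ-like level of 13.8 CPM.

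The genes higher in progenitor-like nuclei included subunits of several channel families. Gria4 was 5.77-fold (5.36 to 6.22) higher, Adra1a 5.38-fold (3.66 to 8.20), Gabra4 5.20-fold (4.20 to 6.50), Grik1 5.16-fold (4.05 to 6.66), Gabrb1 5.15-fold (4.56 to 5.84), Grik2 4.79-fold (4.34 to 5.31) and Gabra3 4.23-fold (3.36 to 5.38). A further 5, Grm7, Gabre, Grin2b, Grin3a and Htr1f, were 2.01-fold to 3.19-fold higher. At a resolution of 0.6, contractile-like nuclei held 711 Gabra4 and 2102 Gabrb1 UMIs, and the remaining progenitor-like nuclei 520 and 1624. For the other genes named here the remaining progenitor-like nuclei held more UMIs, but they were also more nuclei, 2238 against 1069. By level, contractile-like nuclei stood higher for Gria4 (570.1 against 438 CPM), Grik2 (266 against 199.6), Grik1 (44.1 against 37.4) and Grin2b (8.65 against 4.24). Grin3a and Htr1f were lower there, and the intervals of Adra1a, Gabre, Gabra3 and Grm7 included 1. Members of 1 receptor type lay on both sides: among GABA-A genes Gabrg3 was higher in Leydig-like and Gabra3 in progenitor-like nuclei, and among kainate genes Grik4 and Grik2. Chrm3, Grin2c, Grik4 and Grid1 kept their call under all 11 alternatives of nuclei, classes, filter and scaling that were tried, and so did Gria4, Adra1a, Grik2, Gabra3 and Grm7 on the progenitor side. Gria1 kept it in 3, which were another random start and 2 that used the main clusters, a minimum of 20 UMIs and other scaling. Gabrg3 kept it in 4 and Grin2b in 6. Gabra4 and Gabre kept it in 8, Gabrb1, Grin3a and Htr1f in 9 and Grik1 in 10. Of the calls, 6 of 13 on the progenitor side and 5 of 7 on the Leydig side held under all 11 alternatives. The sizes moved more than the calls: over these alternatives the log2 ratio of Leydig-like to progenitor-like CPM ran from 4.25 to 6.91 for Chrm3, from -4.54 to -2.04 for Gria4 and from -6.16 to -0.55 for Gabrb1. In classes whose borders came from ATAC alone, with RNA markers used to name them, the Leydig-like to progenitor-like ratio was 19.0 (18.0 to 20.02) for Chrm3, 25.8 (16.2 to 43.7) for Grin2c and 6.86 (5.90 to 7.99) for Grik4. It was 1.08 (0.806 to 1.43) for Gabrg3, an interval that includes 1. For Gria1 it was 2.88 (1.86 to 4.49), from 51 and 39 UMIs, which is under the minimum of 100, so that no call was made. On the progenitor side the same ratio was 0.111 for Adra1a, 0.180 for Grik2, 0.209 for Gria4 and 0.241 for Gabrb1. Gabra3 stood at 0.245, Gabra4 at 0.339 and Grik1 at 0.399. Markers shared with the adrenal cortex were also highest in Leydig-like nuclei, Mc2r at 61.6, Cyp11b1 at 22.2 and Cyp21a1 at 11.7 CPM. Their part in the receptor levels was not tested.

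**Figure D3:**
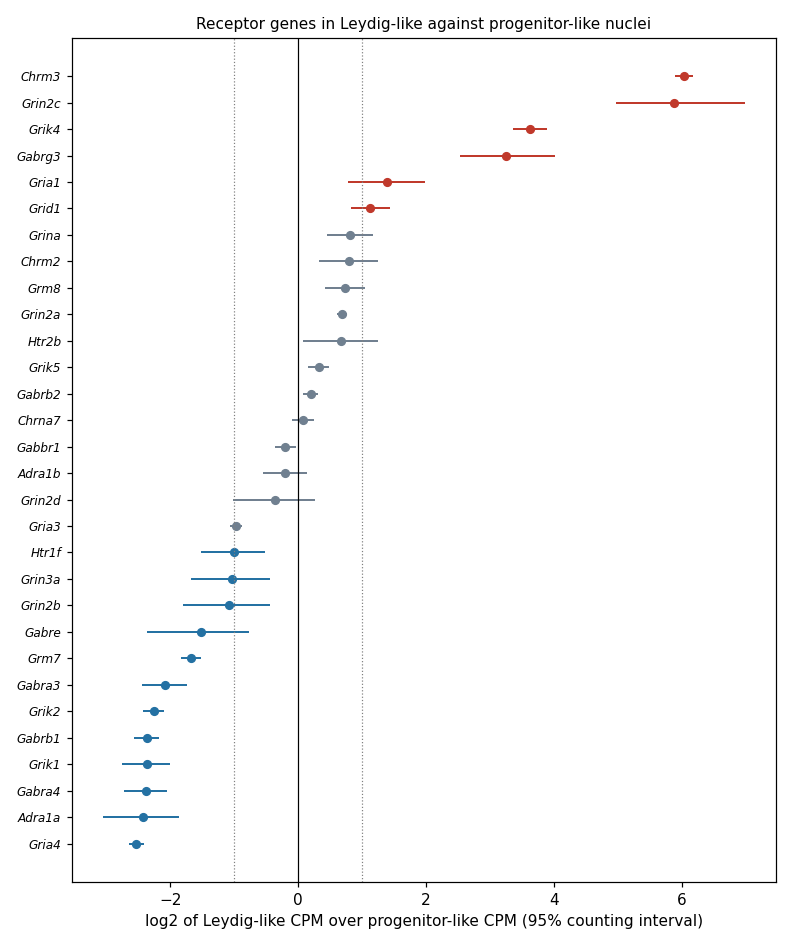
Log2 ratio of Leydig-like to progenitor-like CPM (x axis) with exact conditional binomial 95% intervals for receptor genes (y axis) of at least 100 UMIs over both classes, with dotted lines at 2-fold. Red genes are at least 2-fold higher in Leydig-like and blue genes at least 2-fold higher in progenitor-like nuclei, with Grin2c and Chrm3 apart from all others on the right.

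The progenitor-like class was not uniform. At a clustering resolution of 0.6, a class of 1069 nuclei was named contractile-like by smooth muscle markers, and 1067 of them came from the progenitor-like class (32.7% of it). Of 28 receptor genes of at least 100 UMIs over contractile-like and the remaining progenitor-like nuclei, 4 were at least 2-fold higher in contractile-like nuclei (14.3%, beside 1.72% of 11332 genes) and 5 at least 2-fold higher in the remaining progenitor-like nuclei (17.9%, beside 4.37%). Adra1b was 5.20-fold (4.10 to 6.64) higher in contractile-like nuclei, at 31.3 against 6.02 CPM, which made this its highest class. Gabra4 was 3.56-fold (3.17 to 3.99) higher, at 106 against 29.8 CPM, its neighbour Gabrb1 3.37-fold (3.15 to 3.59), at 313 against 93.1 CPM, and Grin2b 2.04-fold (1.42 to 2.91). Gabra4 stood at 243 CPM in surface epithelium-like nuclei at this resolution, under 3-fold above contractile-like nuclei, and was no longer restricted. Its log2 ratio of surface epithelium-like nuclei to the highest other class ran from 0.59 to 2.24 over all settings tried. Lower in contractile-like nuclei were Gabrb2, at 32.8 against 124 CPM, Grin2a, at 94.5 against 340.3 CPM, Grm8, Htr1f and Grin3a. Gabrb1 and Gabrb2, both beta subunits of GABA-A receptors, stood in opposite order. Gria4 and Grik2 were also highest in contractile-like nuclei, at 570.1 and 266 CPM. In the smaller of the 2 clusters that made up the progenitor-like class in the main clustering, marked by cycling genes, 2 of 28 genes were at least 2-fold higher than in the larger (7.14%, beside 3.59%), Grik1 by 2.54-fold (2.24 to 2.90) and Chrm2 by 3.06-fold (2.05 to 4.58), and 0 were lower (beside 0.884%).

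**Figure D4:**
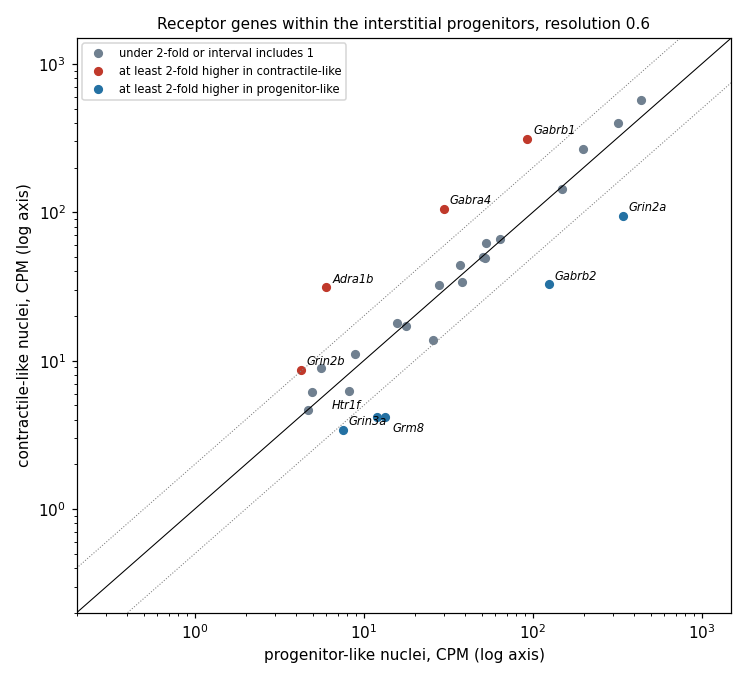
Level in contractile-like nuclei (y axis, CPM, log axis) against the remaining progenitor-like nuclei (x axis, CPM, log axis) at resolution 0.6 for 28 receptor genes, with the line of equality and dotted lines at 2-fold. The 4 red genes lie at least 2-fold above equality, among them Adra1b at 31.3 against 6.02 CPM, and 5 blue genes lie at least 2-fold below.

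Chromatin at the receptor genes was read as a second measure. A peak of the deposited peak list lay within 1 kb of the 5′ start of 75 of 97 receptor genes (77.3%, beside 68.3% of protein-coding genes). Among the 47 genes of at least 100 UMIs this was 41 (87.2%, beside 92.9% of protein-coding genes of that count). Among the 50 genes under 100 UMIs it was 34 (68.0%, beside 29.3%). All 5 dopamine receptor genes and 12 of 14 serotonin receptor genes had such a peak, Htr5a among them with 0 UMIs. The peaks were called over all nuclei together, so these counts give no class. Genes of at least 100 UMIs without a peak at this start included Grm8, Grin2d, Gabrb2, Adra1b and Gria1. All of these but Gabrb2 had a peak within 1 kb of another annotated start.

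Fragments within 1 kb of a start, per 1000000 fragments of a class (FPM), were compared between classes made from RNA alone, so that ATAC did not set them. The names are the same but the nuclei are not: of these classes Leydig-like held 793, progenitor-like 2932, mesonephric mesenchyme-like 893 and surface epithelium-like 427 nuclei. Of 58 receptor genes with at least 50 fragments over Leydig-like and progenitor-like nuclei, 3 were higher in Leydig-like nuclei with an interval above 1 (5.17%, beside 8.00% of 15874 genes) and 3 lower (5.17%, beside 7.91%). The 3 higher genes were Grin2c, Chrm3 and Adra1d. Grin2c had 12.8 FPM in Leydig-like (42 fragments), 7.03 in Sertoli-like, 4.43 in progenitor-like (64 fragments), 3.45 in surface epithelium-like, 3.26 in germ-like and 3.004 in mesonephric mesenchyme-like nuclei, a Leydig-like to progenitor-like ratio of 2.90 (1.92 to 4.34). Chrm3 had 8.55 in Leydig-like (28 fragments), 6.65 in germ-like, 3.67 in progenitor-like (53 fragments), 3.63 in Sertoli-like, 3.45 in surface epithelium-like and 3.22 in mesonephric mesenchyme-like nuclei, a ratio of 2.33 (1.42 to 3.75). Both genes were higher in Leydig-like nuclei in RNA and at their starts, by less at the starts. The Chrm3 start did not differ beyond counting error between Leydig-like and germ-like nuclei, with a ratio of 1.29 (0.784 to 2.07), whereas their RNA levels in classes from ATAC alone were 1346 and 32.0 CPM, and 1526 and 69.5 CPM in the main classes. Adra1d had 78 UMIs and a start ratio of 1.70 (1.15 to 2.47). Lower in Leydig-like nuclei were Gabbr1, with a ratio of 0.710 (0.531 to 0.935), Gabra2 and Chrng. The start ratios of Grik4, 1.06 (0.770 to 1.44), and Gria4, 0.636 (0.371 to 1.03), had intervals that include 1, beside RNA ratios of 6.86 and 0.209 in classes from ATAC alone.

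**Figure D5:**
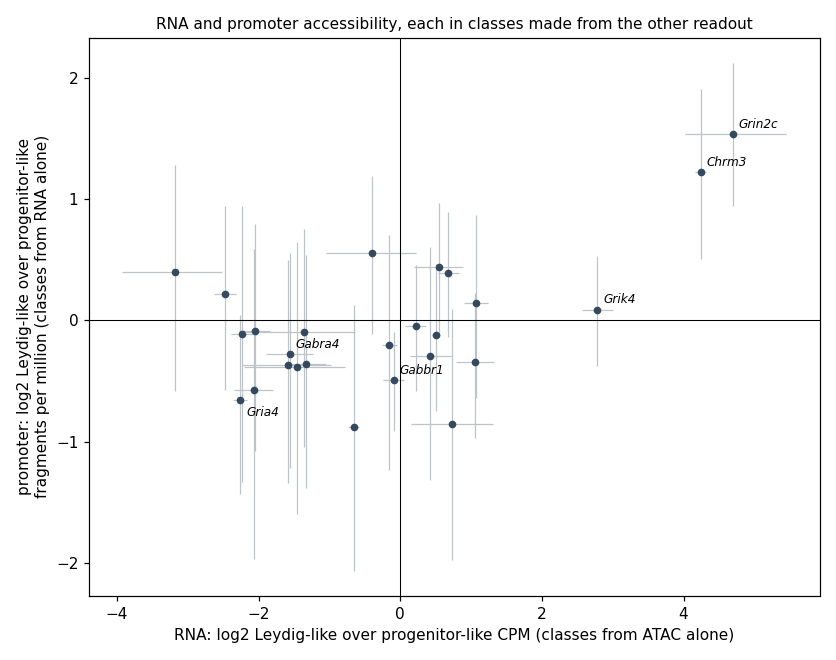
Log2 ratio of Leydig-like to progenitor-like nuclei for RNA (x axis, CPM in classes from ATAC alone) and for fragments within 1 kb of the gene start (y axis, FPM in classes from RNA alone) for the 26 receptor genes with enough counts in both, with 95% counting intervals as grey bars. Grin2c and Chrm3 lie at the upper right, at start ratios of 2.90 and 2.33. The other genes run from a start ratio of 0.544 for Gria3 to 1.47 for Grin2d.

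Peaks inside the gene bodies were counted in the same classes. For these peaks FPM were scaled to the fragments at peaks of a class, and not to all its fragments as at the starts. The sizes of FPM over bodies and at starts are therefore not comparable. Over the 10 peaks of the Chrm3 body, FPM were 79.6 in Leydig-like and 28.0 in progenitor-like nuclei, a ratio of 2.84 (2.19 to 3.66), and Leydig-like nuclei were the highest class, 1.75-fold (1.28 to 2.39) above Sertoli-like nuclei. Over the 4 peaks of Grin2c the ratio was 2.43 (1.72 to 3.39), but germ-like nuclei were highest. Grik4 went the other way from its RNA: over 28 peaks the ratio was 0.792 (0.657 to 0.948). Of 70 receptor genes with at least 50 such fragments over both classes, 10 were higher in Leydig-like nuclei (14.3%, beside 15.9% of 18243 genes) and 9 lower (12.9%, beside 10.3%). Gabrb2 held peaks of both kinds, 1 with 12 Leydig-like and 249 progenitor-like fragments and a ratio of 0.228 (0.116 to 0.405), and 1 with 24 and 23 and a ratio of 4.93 (2.67 to 9.15). Peaks of both kinds also lay in Grin2b, with ratios of 5.16 (2.77 to 9.65) and 0.246 (0.0653 to 0.655), and in Adra1b and Grik3. The share of such genes among all genes was not computed. Across 44 receptor genes tested in both, the class with the most gene-body FPM was the class with the highest RNA for 11 (25.0%, beside 27.5% of 14024 genes). These included Chrm3 in Leydig-like, Gabrg3 in supporting-like (2.16-fold above the next class, 1.04 to 4.05) and Gabra4 in surface epithelium-like nuclei (1.69-fold, 1.09 to 2.59). Grik3 in surface epithelium-like nuclei also had an interval above 1 (1.53-fold, 1.23 to 1.89). For Gria2, Chrm2, Grik5, Grina, Grm4, Gabbr1 and Htr4 the interval over the next class included 1.

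The genes that make and move the transmitters were followed as a list of 34. Of these, 18 reached 100 UMIs (beside 47.2% of all genes), and 2 genes of transmitter neurons, Dbh (noradrenaline synthesis) and Slc18a3 (acetylcholine loading), had 0 UMIs. The acetylcholine enzyme gene Chat had 22 UMIs in all, and the GABA synthesis genes Gad1 and Gad2 had 118 and 100, highest in germ-like nuclei at 5.32 and 4.36 CPM. Slc1a3, a glutamate transporter, reached 243 CPM in mesonephric mesenchyme-like, Abat 199 and Bche 67.3 CPM in supporting-like, and Maoa 84.4 CPM in Leydig-like nuclei. Slc1a2, another glutamate transporter, was the 1 restricted gene of these 18 (beside 10.0% of all genes of that count), in surface epithelium-like nuclei at 27.6 CPM (3.83-fold above the next class, 1.60 to 11.99).

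Of 38 genes of scaffold and auxiliary proteins, 37 were in the feature table and 31 reached 100 UMIs (beside 47.2% of all genes). Of the 31, 5 were restricted (beside 10.0% of all genes of that count): Shank3 in endothelial-like (167 CPM), Neto1, an auxiliary subunit of kainate receptors, in surface epithelium-like (65.2 CPM), Kctd12, an auxiliary of GABA-B receptors, in immune-like (41.7 CPM), Cbln4 in Sertoli-like (28.3 CPM) and Shisa7 in Leydig-like nuclei (7.21 CPM). Grip1, which binds AMPA subunits, was highest in surface epithelium-like nuclei at 1667 CPM. Kctd8, another GABA-B auxiliary, was highest in supporting-like nuclei at 557 CPM. Shank2 was highest in Leydig-like nuclei at 254 CPM. Of the others at 50 CPM or more, Gphn, Dlg1, Homer1 and Neto2 were highest in germ-like, Nlgn1 in progenitor-like, Dlg2 in pericyte-like, and Nlgn2, Dlg4, Cacng4, Cacng7 and Shisa9 in mesonephric mesenchyme-like nuclei.

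Neurons and glia of the sample were looked for by their markers. No cluster took either name, 59 nuclei held at least 3 of 9 neuron markers and 11 at least 3 of 6 glia markers. Of the 9 neuron markers, 5 reached 100 UMIs (beside 47.2% of all genes) and 1 was restricted (beside 10.0% of all genes of that count). Among the others Nefl had 4 UMIs, Elavl3 37 and Stmn2 75, while Syt1 reached 443 CPM in progenitor-like nuclei. The summed 6 glia markers stood at 51.3 CPM in Sertoli-like and 38.2 CPM in germ-like nuclei. In the other classes they ran from 9.13 to 17.3 CPM. The summed 9 neuron markers ran from 84.5 CPM in erythroid-like to 186 CPM in pericyte-like nuclei outside the progenitor-like class, and how far single neurons add to the receptor levels of a class was not tested.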

How the data were processed

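RNA and ATAC were read in the same nuclei of 1 sample. Per the submitters' processing notes, the authors made both count tables, UMI counts per gene and counts per peak, with Cell Ranger ARC 2.0.1 on mm10. These deposited counts were used as raw counts. For gene-body levels the counts per peak were taken as transposase cuts and were halved and rounded up to give fragments. Strand handling in counting was not given in the sources used here. All 9833 barcodes were present in both tables. Nuclei of at least 500 genes, 250 to 25000 fragments at peaks, at least 20% of fragments at peaks, under 10% mitochondrial, 10% ribosomal and 0.5% haemoglobin UMIs were kept (7667, with 122049390 UMIs before any filter). The 470 with the highest Scrublet scores (scanpy 1.11.5, 0.8% per 1000 nuclei) were removed, in place of the study's scDblFinder, and no ambient RNA was subtracted. That left 7197.

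Nuclei were clustered on both readouts in Seurat 5.3.0 (R 4.3.3) with 2000 variable genes, receptor genes left out, 30 components and resolution 0.3, and named by marker lists. Variances and components were rounded so that the clustering did not vary with the numerical library. UMIs were summed per class and given as CPM. Intervals (scipy 1.17.1) are exact Poisson for a level, exact conditional binomial for a ratio and Clopper-Pearson for a share, and cover counting error only. Genes under 100 UMIs were not called. Counts cover all receptor genes, but some genes are not reported here. In each receptor group the 4 genes with the highest level and every restricted gene are named with values unless left out, while other genes named were chosen after their values were seen. The receptor genes and all gene lists were chosen with earlier results of these data known. Ratio and restriction calls were tested on simulated data. Alternatives varied nuclei, doublets, classes, resolution, scaling, the UMI filter and the promoter window.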

Additional observations from a re-analysis of the deposited data

How the results depend on the processing

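The counts were recomputed with other nuclei, classes, scaling and filters. The number of receptor genes restricted to 1 class lay between 10 and 15 (14 as reported). The highest class was the same for 33 to 47 of 47 genes, except that classes from ATAC alone, with no endothelial-like, pericyte-like, supporting-like, immune-like or erythroid-like class, gave 27 of 47. Genes at least 2-fold higher in Leydig-like nuclei numbered 5 to 7, but 11 with a minimum of 20 UMIs per gene, which brings in more genes. Genes at least 2-fold higher in progenitor-like nuclei numbered 9 to 15, but 7 with stricter minimums of 1000 genes and 1000 fragments, where the Leydig-like class held 438 nuclei, and the cause was not tested. Detected genes numbered 44 to 62, but 93 with no filter. Genes with a peak at the start numbered 70 within 500 bp and 79 within 2 kb, against 75 within 1 kb. The log2 ratio of Adrb3 in germ-like nuclei to the highest other class reversed, to -0.13 with nuclei over 50000 UMIs left out and to -0.42 at resolution 0.6. An unnamed cluster formed under both settings, and at resolution 0.6 it held part of the germ-like nuclei.

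Chosen after seeing the data were a peak at any annotated start (81 genes), classes of at least 300 nuclei (33 of 47 in the same class, 15 restricted) and another random start of the clustering (47, 14, 7 and 13 as reported). The Leydig-like class held 438 to 851 nuclei over these settings. RNA and ATAC were paired by nucleus, but there was 1 library per assay, so no value here has a replicate. Classes under 100 nuclei rest on few nuclei and germ-like, endothelial-like and immune-like levels on few deep ones.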
